A study of Mus musculus with 4 samples.

Results

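The regulatory landscape of Shh, which encodes the secreted signal Sonic hedgehog, was examined in accessible chromatin of mouse limb buds from its gene body through Lmbr1. The members are all regions of the deposited lists that overlap chr5:28300000-29600000 (mm10), an interval fixed by position and not by any measured value. It held 29 of the 99356 regions in the E10.5 list and 11 of the 37413 regions in the E11.5 list, where E stands for embryonic day. ATAC-seq, in which the Tn5 transposase inserts adaptors into exposed DNA, was run on cells from fore- and hindlimbs of Wild Type embryos, fixed in PFA, in 4 samples, with 2 replicates for each stage. The sample titles give the earlier stage as E105, read here as E10.5, while the protocol writes E10, and neither treatment nor mutant allele separates the stages. Each list joins the replicates of its stage, so no spread between replicates exists, the read depth is unknown, and no test between stages could be made.

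In the limb bud, Shh is made by a small group of cells at the posterior margin, the zone of polarizing activity, from which it patterns the digits. Its limb transcription depends on the ZRS, an enhancer that lies far from the gene, inside an intron of its neighbour Lmbr1, and mutations of the ZRS give extra or missing digits. Other enhancers spread between Shh and Lmbr1 serve the brain, mouth, gut and lung. The limb buds were assayed whole, so that fewer cells of a type and less accessibility per cell cannot be told apart.

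The ZRS and Shh sequences are not shown here, since a genome of the mm10 build was not used. RefSeq promoter sequences (build GRCm38.p6, which has the mm10 coordinates) were matched by symbol for 6 of the 7 protein-coding genes of the interval. The 250 bases before the start site are printed for Lmbr1 and Rnf32, the promoters nearest to the ZRS on either side, and for Mnx1, a developmental gene of the same interval. Capitals mark GC boxes, GGGCGG on either strand.

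Lmbr1, chr5:29378391-29378640, minus strand: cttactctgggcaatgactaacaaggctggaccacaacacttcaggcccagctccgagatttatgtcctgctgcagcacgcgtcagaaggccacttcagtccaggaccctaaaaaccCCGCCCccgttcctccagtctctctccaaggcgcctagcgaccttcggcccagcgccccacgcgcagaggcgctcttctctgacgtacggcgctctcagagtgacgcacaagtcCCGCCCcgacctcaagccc

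Rnf32, chr5:29195743-29195992, plus strand: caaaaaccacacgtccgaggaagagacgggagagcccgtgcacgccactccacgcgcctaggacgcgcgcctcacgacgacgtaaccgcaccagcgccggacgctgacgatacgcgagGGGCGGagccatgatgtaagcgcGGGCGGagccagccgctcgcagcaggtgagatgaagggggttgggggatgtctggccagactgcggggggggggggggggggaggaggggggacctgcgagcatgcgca

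Mnx1, chr5:29478471-29478720, minus strand: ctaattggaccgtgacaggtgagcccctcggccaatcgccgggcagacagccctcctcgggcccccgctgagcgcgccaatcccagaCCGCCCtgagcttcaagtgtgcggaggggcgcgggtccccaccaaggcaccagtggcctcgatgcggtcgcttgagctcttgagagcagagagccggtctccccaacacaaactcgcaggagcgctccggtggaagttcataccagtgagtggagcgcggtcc

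The strongest point, or summit, of the Lmbr1 promoter region fell inside the printed sequence at both stages, 73 bp before the RefSeq start site at E10.5 and 76 bp before it at E11.5. For Rnf32 the summits lay 195 and 186 bp before the start site. For Mnx1 the E10.5 summit lay 992 bp before the start site, outside the printed bases, and the summit of the E11.5 region that spans the start lay 190 bp before it. Lmbr1 and Rnf32 each hold 2 GC boxes before the start site and Mnx1 holds 1. All 6 promoters carry at least 1 in their 300 bases, against 35.7% of the 32851 promoters in the table. The table was taken whole, with or without an accessible region, while each of the 6 had one at both stages. The 2 sets are therefore unlike, here and for the values below. The ETS motif CCGGAAG was found, of these 6, in the promoter of Nom1 alone (5 matches on both strands, some of which overlap in a palindrome), against 8.86% of all promoters. Neither the TATA box TATAAA (13.6% of all promoters) nor the E-box CATCTG (17.2%) was found in any of the 6. The ratio of observed to expected CpG ranged from 0.786 in Nom1 to 1.31 in Ube3c, with a median of 0.384 over the table. A match of letters is a description and not evidence of binding.

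The ZRS was represented in the E10.5 list and not in the E11.5 list. A single E10.5 region, chr5:29314361-29315604, lay within 1 kb of the enhancer's position at 29.315 Mb. It was 1244 bp wide, carried a signal value of 2027 (the authors' value for the whole peak, which grows with its width), or 1.63 per bp, and had a −log10 p of 5.85. Its signal ranked 26224 of 99356 in the list, at percentile 73.6, and its −log10 p stood at percentile 56.8. Its summit at 29314741 is 848 kb from the Shh start site at 28467101 and 63.7 kb inside the outer end of Lmbr1. No E11.5 region overlapped it, and the nearest E11.5 regions were 118 kb away toward Shh and 62 kb away at the Lmbr1 promoter. With the E10.5 list reduced to the length of the E11.5 list, the ZRS region was kept when regions were ranked by signal and lost when they were ranked by −log10 p, so that in the latter case neither list held it.

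A missing E11.5 region was common among E10.5 regions like the ZRS. Over the whole E10.5 list, 32.3% of regions shared 1 bp or more with the E11.5 list. Among the 85564 E10.5 regions farther than 1 kb from a protein-coding start site the share was 23.6%. In the signal decile of those regions that held the ZRS (1881 to 3166) it was 53.0% (95% Wilson interval 52 to 54.1%, counting error only), and in its decile of −log10 p (5.63 to 6.34) it was 20.1% (19.3 to 21.0%). Of the 754 regions in both deciles, 207 (27.5%) overlapped an E11.5 region. Among the 65364 E10.5 regions away from promoters that lacked an E11.5 overlap, the ZRS region ranked 4634 by signal, so that 7.09% had a higher signal. The lowest signal in the E11.5 list was 200.01 and the lowest −log10 p was 2.83. Absence from the list therefore says only that no peak passed the authors' call, not that the ZRS was closed.

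**Figure D1:**
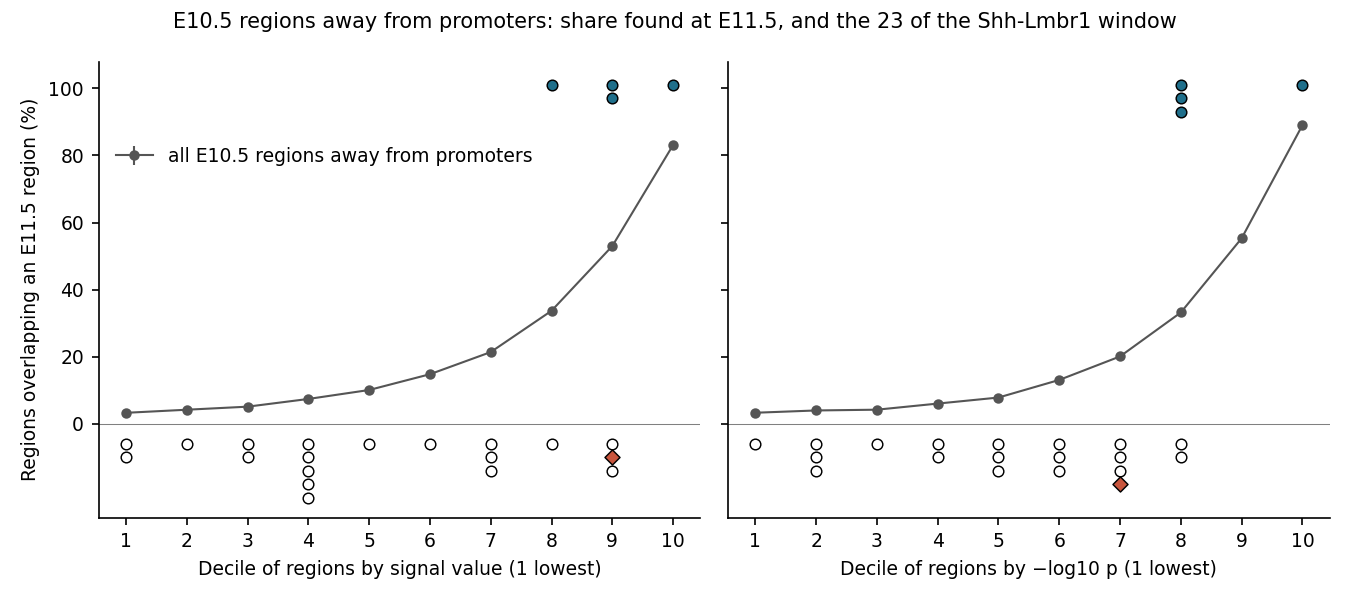
Lines give the percentage of E10.5 regions away from promoters that overlap an E11.5 region, by decile of signal value (left) and of −log10 p (right), with 95% Wilson bars. Symbols near the top (filled, overlapping) and under 0 (not overlapping) are the window's own regions, stacked by decile and not on the percentage scale. Promoters are counted by the outer end of each gene, so the Rnf32 region is among the filled symbols. The diamond is the ZRS, in decile 9 by signal, where 53.0% overlapped, and in decile 7 by −log10 p, where 20.1% did.

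Lmbr1, a membrane protein gene (chr5:29229802-29378421, minus strand), held 3 regions in the E10.5 list and 1 in the E11.5 list. Its promoter region was called in both lists, at percentile 49.8 of promoter regions by signal at E10.5, near their median, and at 77.0 in the E11.5 list. At E10.5 it lay at chr5:29377333-29379058 with a signal of 4324 (2.5 per bp), a −log10 p of 9.35 and rank 12075 in the list. At E11.5 it lay at chr5:29377579-29379114 with a signal of 4614 (3.0 per bp), a −log10 p of 9.15 and rank 3408. The summits were 3 bp apart and 1480 bp were shared. The remaining E10.5 region, chr5:29293281-29293492, was 212 bp wide with a signal of 342 at rank 79743, with its summit 826 kb from the Shh start site, on the Shh side of the ZRS. Within the gene body, then, the promoter was the part called in both lists, and the ZRS and the narrow region were called at E10.5 alone. The exons and introns of mm10 were not used, so regions are placed by gene body.

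Shh itself (chr5:28456840-28467101, minus strand) held 5 regions at E10.5, of which 1 had an E11.5 counterpart, beside 32.3% of the whole list. The promoter region, chr5:28466750-28467203, spans the start site and also the start of the divergent long noncoding RNA gene 9530036O11Rik. Its E10.5 signal was 649 (1.43 per bp) with a −log10 p of 4.79, at rank 57872. Its E11.5 counterpart, chr5:28466786-28467194, had a signal of 228 (0.557 per bp) with a −log10 p of 3.6, at rank 34976 of 37413. Among promoter regions alone, these signals stood at percentile 8.91 of the E10.5 list and 1.38 of the E11.5 list. The Shh promoter was thus called at both stages, and at both its region was among the weak promoter regions of its own list. With the E10.5 list reduced to the 37413 strongest regions, by signal or by −log10 p, the E10.5 promoter region was no longer in it, and at a minimum −log10 p of 5 it was in neither list.

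The other 4 E10.5 regions in the Shh body had no E11.5 overlap, beside a share with overlap of 23.6% for all E10.5 regions away from promoters. In the signal deciles of these 4, that share ranged from 3.3 to 53.0%. The strongest, chr5:28464418-28465615, carried signal 2002 at a −log10 p of 6.21, close to the ZRS values, and its summit lay 2.24 kb inside the gene from the start site. Next came chr5:28459891-28461150, with signal 1572 at a −log10 p of 5.38, 6.38 kb from the start site. Regions at chr5:28458771-28459258 and chr5:28458063-28458519, toward the far end of the gene, had signals of 419 and 208, the latter at rank 97844 of 99356. The stronger pair exceeded the promoter region of Shh in signal, and 1 of the 2, at 2.24 kb, also did so per bp (1.67 against 1.43).

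Upstream of Shh, a region with its summit 2.61 kb from the start site was called at both stages. It lies in 9530036O11Rik at chr5:28469559-28470097 for E10.5, with a signal of 1608, 2.98 per bp and a −log10 p of 6.79. At E11.5 it lay at chr5:28469586-28469984, with a signal of 242, 0.606 per bp and a −log10 p of 3.62, at percentile 9.44 of that list. Between the Rbm33 promoter and the Rnf32 region, it and the Shh promoter were the only 2 regions of the E11.5 list. On the far side of Shh, a region at chr5:28451275-28451675 (signal 798, 15.7 kb from the start site) was called at E10.5 alone.

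**Figure D2:**
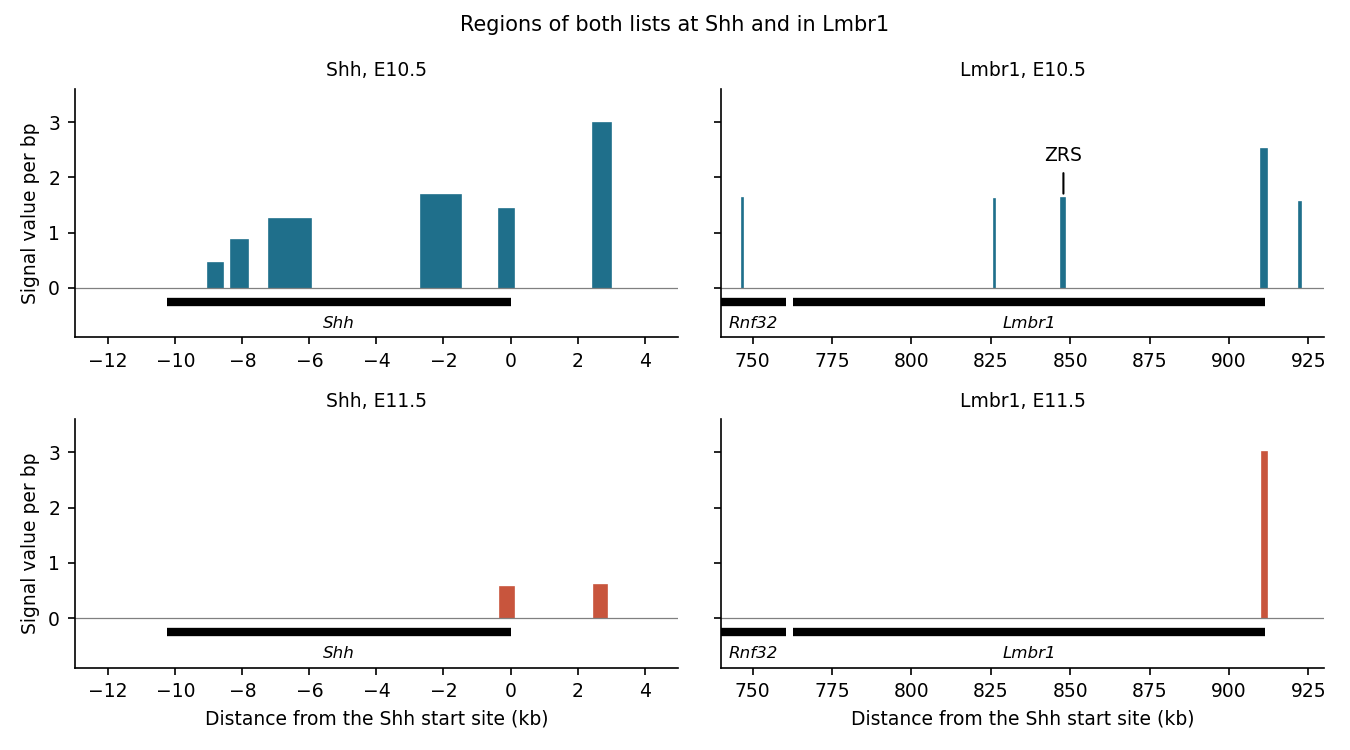
Bars show the regions at Shh (left) and in Lmbr1 (right) at E10.5 (top) and E11.5 (bottom), each at its width or, for the narrowest, the width of the drawn line. The horizontal axis is the distance from the Shh start site in kb, the vertical axis the signal value per bp of the region, and black lines are bodies of protein-coding genes. At E11.5 the 2 bars at Shh stand at 0.557 and 0.606 per bp, and Lmbr1 shows its promoter bar alone.

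The gene desert of 726 kb between the Shh start site and Rnf32 was sparse in both lists. It held 5 E10.5 regions and a single E11.5 region, the one 2.61 kb upstream of Shh. The remaining 4 E10.5 regions lay 330 kb from the Shh start site (chr5:28797248-28797526, signal 344), 437 kb (chr5:28903591-28904133, signal 429), 447 kb (chr5:28914092-28914414, signal 295) and 488 kb (chr5:28955131-28955351, signal 428). The last 3 lie in the long noncoding RNA gene Gm35688. All 4 were at or under percentile 27.8 of the E10.5 list by signal, in deciles where 4.22 to 7.43% of regions away from promoters overlapped an E11.5 region. At E10.5 the widest interval without a region was 327 kb (chr5:28470098-28797247), which 0.772% of the intervals between neighbouring E10.5 regions equalled or exceeded. At E11.5 it was 725 kb (chr5:28469985-29195283), from just upstream of Shh to Rnf32, which 0.96% of E11.5 intervals equalled or exceeded. The median interval was 7.98 kb at E10.5 and 24.7 kb at E11.5.

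**Figure D3:**
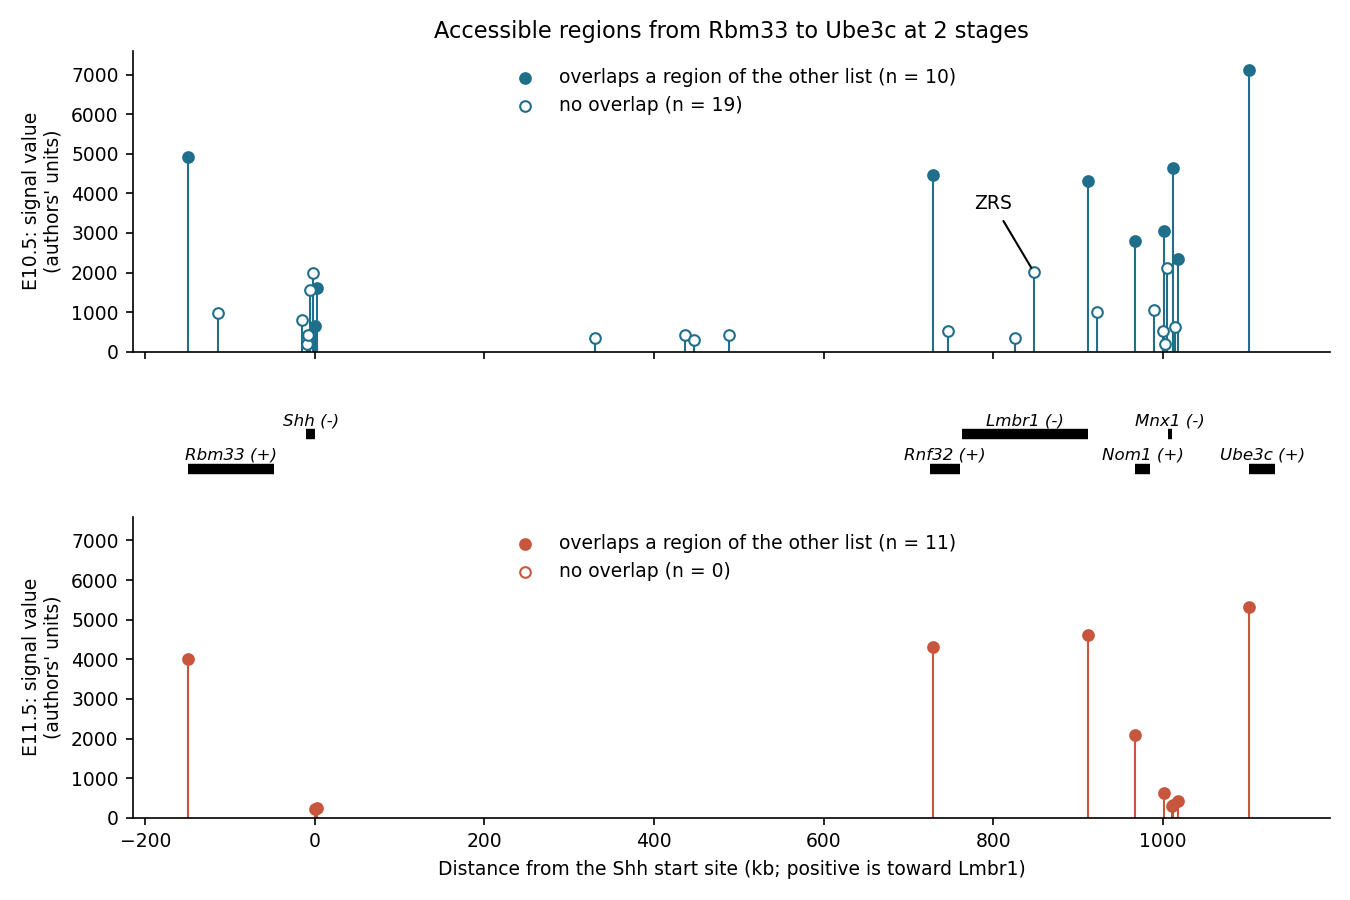
Each stem is a region at its summit, by distance from the Shh start site in kb (horizontal) and signal value in the authors' units (vertical), at E10.5 (top) and E11.5 (bottom), with protein-coding genes and their strand between. Filled symbols overlap a region of the other list, which holds for 10 of 29 stems in the top panel but 11 of 11 in the bottom one, and Ube3c is drawn to the edge of the interval. The tallest stems stand at promoters at both stages, and the desert between Shh and Rnf32 holds 4 low open symbols beyond the pair at Shh at E10.5 and none at E11.5.

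Around Shh, the regions at the starts of Ube3c, Rbm33, Rnf32, Lmbr1 and Nom1 had the 5 highest E11.5 signals of the interval. Among all promoter regions they were not uniformly strong: Nom1 stood at percentile 31.8 by signal at E10.5, with 37.8 at E11.5, and Ube3c at 77.4 with 83.7. Ube3c, a ubiquitin ligase gene, had the highest signal of the interval in both lists (7124 at E10.5, chr5:29568850-29570200, and 5310 at E11.5, chr5:29568856-29570148). Rbm33, which encodes an RNA-binding protein, had 4911 at E10.5 (chr5:28316289-28317674) and 4016 at E11.5 (chr5:28316498-28317792). The Rnf32 region (chr5:29195308-29196729 and chr5:29195284-29196556) had 4460 and 4301, and that of Nom1 (chr5:29434211-29435487 and chr5:29434527-29435386) 2804 and 2092. With Lmbr1, these held 5 of the 7 highest E10.5 signals of the interval. Their E10.5 and E11.5 summits lay 2 to 57 bp apart.

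Counted by the outer end of each gene, 6 of the 7 protein-coding genes of the interval had a promoter region within 1 kb in either list, against 67.9% (E10.5) and 61.5% (E11.5) of 20583 genes. Rnf32 was the exception, because its outer end lies 2563 bp from the E10.5 region. With the start sites of the RefSeq promoter table, an alternative chosen after seeing the data, all 7 had a region at each stage.

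Mnx1, which encodes a homeodomain factor known for specifying motor neurons, was the nearest protein-coding start for 8 E10.5 regions and 4 E11.5 regions. The E10.5 region over its start, chr5:29477359-29479792, was the widest of the interval at 2434 bp, with a signal of 4632. At E11.5 the same stretch held 2 narrow regions, chr5:29478329-29478823 (signal 303) and chr5:29479369-29479559 (signal 319), at percentiles 4.57 and 5.04 of E11.5 promoter regions. Farther from the start, chr5:29467464-29468710 had a signal of 3039 at E10.5 and its counterpart chr5:29467662-29468659 had 619 at E11.5. The region at chr5:29484450-29485923 had 2341 at E10.5, and chr5:29485094-29485526 had 416 at E11.5. At chr5:29471920-29472707, 5763 bp from the start site, signal 2124 at a −log10 p of 6.82 in the E10.5 list had no E11.5 counterpart, which makes it the strongest region of the interval seen at E10.5 alone, ahead of the ZRS and the Shh region at 2.24 kb. The other 4 around Mnx1 without a counterpart had signals of 200.3 (chr5:29469782-29470057) to 1063 (chr5:29456970-29457610). By signal, Mnx1 and Shh had the weak E11.5 promoter regions of the interval, and Ube3c, Lmbr1 and Rbm33 the strong ones. Promoters of the neural tube and motor neuron markers Neurog1, Neurog2, Isl1, Lhx3, Foxa2 and Nkx2-2 had a region at both stages. Over all protein-coding genes, 67.9% had one in the E10.5 list and 61.5% in the E11.5 list. Not all markers of that list are reported here, and the part of these markers in the Mnx1 result was not tested.

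Counted together, 10 of the 29 E10.5 regions of the interval had an E11.5 overlap (34.5%, 95% Wilson interval 19.9 to 52.7%), near the 32.3% of the whole list. With the E10.5 list reduced to 37413 regions by signal, 69.2% of the 13 left in the interval were shared, against 68.9% of that list, and by −log10 p 75% of 12, against 70.2%. All 11 E11.5 regions had an E10.5 overlap, against 91.8% of the whole list. The 0 of 11 without one still leave room for a share of up to 27.3% (3 counts). All 6 E10.5 promoter regions were shared, against 86.2% of E10.5 promoter regions. Of the 23 others, 4 were shared (17.4%, 6.98 to 37.1%), against 23.6%. The Rnf32 region, which covers the RefSeq start site of that gene, is among these 4. With start sites of either source left out, a setting chosen after seeing the data, 3 of 22 were shared (13.6%). Of these 23, the 15 in the 7 lowest deciles of signal included 0 shared regions, and 2 of the 5 in the decile of the ZRS were shared. Over all E10.5 regions away from promoters, the share was 3.3% in the lowest of those 7 deciles and 21.4% in the highest. In the decile of the ZRS it was 53.0%. The 0 of 15 is therefore no trait of the interval. The ratio of E10.5 to E11.5 regions was 2.64 in the interval and 2.66 over the lists. By these counts the interval did not stand apart from its lists. It was poorer in regions than chromosome 5 as a whole, with 22.3 per Mb in the E10.5 list and 8.46 in the E11.5 list, while 41.9 and 15.4 were found between the first and last region of the chromosome.

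Shared regions were wider at E10.5 in 11 of 11 overlapping pairs, and the summits of 10 pairs lay within 100 bp of each other. The exception was the E10.5 region over the Mnx1 start and the first of its 2 E11.5 counterparts, whose summits were 802 bp apart. That Mnx1 region enters 2 pairs, so the 11 pairs come from 10 E10.5 regions. The same shares were not computed over the whole lists, so these counts do not set the interval apart. Taken over all its regions, shared or not, the interval had the larger median width in the later list, 860 bp against 641 bp in the earlier one. Over the whole lists the order was reversed, with 598 bp at E11.5 and 624 bp at E10.5. Promoter regions made up 7 of the 11 E11.5 regions of the interval and 6 of its 29 E10.5 regions, so the 2 sets are unlike. At the edges of the interval, the last region before it lay at chr5:28170896-28171264 at E10.5 (signal 384) and chr5:28166336-28166955 at E11.5 (427). The first regions after it lay at chr5:29687598-29688341 (1054) and chr5:29708293-29708644 (433).

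The Hedgehog pathway carries the Shh signal from ligand release through the receptor Patched and the transducer Smoothened to the Gli transcription factors. Of 20 pathway genes, 19 were located with a strand (not Disp1), and a promoter region was listed for 19 of 19 at E10.5 but 18 of 19 at E11.5, beside the 67.9% and 61.5% of all genes given above. Signal per bp of the strongest region within 1 kb of the start is given here, since it sets genes side by side irrespective of width. At E10.5 the 3 ligand genes were the 3 lowest, Dhh at 0.848, Ihh at 1.37 and Shh at 1.43 per bp, against a median of 2.67 for the located genes and 2.9 for all promoter regions. At E11.5 Shh was the lowest at 0.557 per bp and Dhh next at 1.06, against medians of 2.08 and 2.32, and Ihh had no region. The Ihh region at E10.5 (chr1:74951028-74951957) had a −log10 p of 4.92 and no E11.5 overlap.

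Genes for the responding side stood higher in each list. At E10.5, Gas1, a co-receptor, had 4.75 per bp, Smo, the transducer, 4.27, and Sufu, which restrains the Gli factors, 5.32. Gli1 had 3.87, Gli2 3.32 and Gli3, the main repressor of the pathway in the limb, 4.23. At E11.5 the values were 2.18 for Gas1, 2.48 for Smo, 3.47 for Sufu, 1.74 for Gli1, 2.22 for Gli2 and 2.96 for Gli3. Ptch1, the receptor and a target of the pathway, had 2.42 and 1.44, and Hhip, a ligand-binding antagonist, had 1.83 and 1.23. Signal was not compared between the lists.

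**Figure D4:**
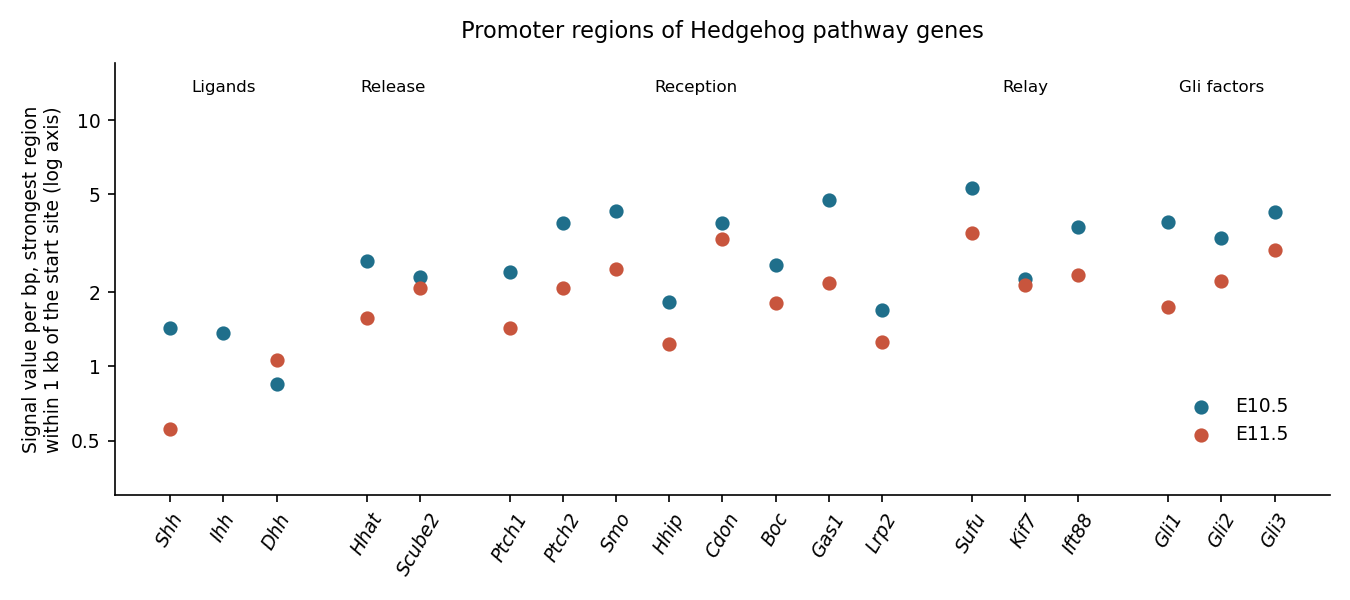
Points give, for 19 Hedgehog pathway genes grouped by role, the signal value per bp of the strongest region within 1 kb of the start site (log axis), in each list. The ligands are at the left: Shh stands at 1.43 at E10.5 and at 0.557 at E11.5, Ihh has no E11.5 point, and the Gli genes stand between 3.32 and 4.23 at E10.5.

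Of 25 genes for factors or signals known to act on the ZRS or on Shh in the limb, all 25 had an E10.5 promoter region, beside 67.9% of all genes, while 21 (84.0%) had an E11.5 one, beside 61.5%. Hand2, a bHLH activator of Shh, had 2.68 and 1.72 per bp. Hoxd13, whose product binds the ZRS, had 3.71 and 1.3. Etv4 and Etv5, ETS factors that confine Shh to the posterior margin, had 3.22 and 4.66 at E10.5 and 1.91 and 2.65 at E11.5. The 4 genes with a region at E10.5 alone were Hoxd11, Fgf4, Fgf8 and Ldb1. The Hoxd11 and Ldb1 regions did overlap an E11.5 region, one farther than 1 kb from the outer end of the gene. Those of Fgf4 (chr7:144861004-144861971, signal 316) and Fgf8 (chr19:45740943-45743891, signal 2637), the ridge signals that sustain Shh, had no E11.5 overlap. With RefSeq promoter table start sites, 23 of 25 had a region at E11.5. Gli3 stands in both lists of genes.

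The tissue label was checked by promoter regions of marker genes, which 67.9% of all protein-coding genes had in the E10.5 list and 61.5% in the E11.5 list. Of 10 limb mesenchyme markers, all 10 had an E10.5 region, while 9 had an E11.5 one, Tbx5 being the exception. Ectoderm had 6 of 7 in the earlier list and 3 in the later one (Krt5, Krt14 and Grhl2 at E10.5 alone, though 1 of the 2 Grhl2 regions overlapped an E11.5 region beyond 1 kb), and muscle precursors had 4 of 4 and 2 (Pax3 and Myf5 at E10.5 alone). Endothelium had 3 of 5 and 1 (Cdh5 and Tie1 at E10.5 alone). Blood had 1 of 5 and 2 (Hbb-bh1 at E11.5 alone). Klf1, an erythroid factor gene, had regions at both stages, with highest signals of 4885 and 2495, while Gata1, Spi1 and Ptprc had none at either. The lower E11.5 counts of ectoderm, muscle precursors and endothelium stand beside the missing E11.5 region at the ZRS, and their part in it was not tested.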

How the data were processed

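The 2 peak lists, 1 per stage, were deposited by the authors in narrowPeak format on mm10, per the file headers. The submitters' processing notes name cutadapt, Bowtie2, SAMtools, deepTools and Genrich, while their versions and settings, any Tn5 shift and the joining of replicates are not given in the sources used here. The deposited signal value is a total over the peak, and the deposited −log10 p is the peak's own. The deposited score equals signal per bp times 1000, rounded and capped, and was not used. Depth is unknown. Each list joins 2 replicates, so nothing was tested between stages.

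Regions on chromosomes 1 to 19, X and Y were kept and compared by overlap of at least 1 bp. Genes came from RefSeq GRCm38.p6, with strand by symbol from GENCODE M1, for 94.0% of protein-coding genes, and the start site was the outer end. Promoter regions lie within 1 kb of it. The naming rule took regions at the Shh start, over the ZRS and in Lmbr1, the 10 strongest of the interval per stage, the 5 strongest seen at E10.5 alone, any seen at E11.5 alone (0), coding promoters, and list genes with a promoter region at 1 stage only. Some marker results are not reported here. Other regions and genes were named after their values were seen. Shares carry 95% Wilson intervals, and a floor is 3 counts, for counting error only. Members and lists were chosen with earlier results of these data known. The alternatives were stricter peaks, matched list lengths, other overlap rules, intervals and start sites. Interval functions were tested on simulated data (Python 3.11.15, pandas 2.3.3, SciPy 1.17.1).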

Additional observations from a re-analysis of the deposited data

How the results depend on the processing

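No paired analysis was possible because 1 list stands for both replicates at each stage, which also prevents leaving one out. Over 11 alternative settings and 18 results, 60 of 80 values kept within 1.5 times the reported count or within the interval of the reported share, and 20 moved. The E11.5 list was left unchanged in both runs of matched list length. Its counts in those runs, which are among the 60, could therefore not move. The settings applied to the ZRS count removed E11.5 regions, left that list unchanged, or set the interval to 500 bp or 2 kb. The nearest E11.5 region was 62 kb away, so none could raise the count. The ZRS count at E11.5 was thus 0 in each alternative run by construction. At E10.5 the ZRS region was present in each but the E10.5 list cut to the E11.5 length by −log10 p, where it was 0, since that list ends at 6.3 and the region has 5.85. That setting left 12 regions in the window, 75% of them shared, with 0 in Shh, 1 between Shh and Rnf32 and 1 in Lmbr1. Cutting by signal left 13 (69.2% shared), with 2 in Shh and 1 in the desert. A minimum −log10 p of 5 gave 19 and 5 regions, with 2 in Shh and 1 in the desert for E10.5 and 0 in each for E11.5, so that the Shh promoter was in neither list at that minimum. From the Shh start to the end of Lmbr1 there were 11 and 4 regions. Reciprocal overlap of 50% put the shared E11.5 percentage at 72.7. Away from start sites of either source, chosen after seeing the data as were the RefSeq start sites, 13.6% of E10.5 regions were shared. The lower region counts follow by construction from fewer regions or a shorter interval, and the 72.7% from a stricter overlap. The shared E10.5 percentages of 69.2, 75 and 13.6 depend also on which regions were kept. The depth is unknown, so its effect on these counts was not tested.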
